A study of Setaria viridis with 23 samples.

Results

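The 28 genes described here were listed by the study as co-expression partners of SvPla1, SvBif2 and other regulators of boundary and axillary meristem formation, out of 35214 genes measured in the inflorescence primordium of S. viridis. The network joined genes whose levels moved together over the same 23 libraries used here, and only partners with strong connections to a chosen set of regulators were listed. The study built this network only on genes that it had filtered for a change between stages and for expression. The shares of all genes tested that are given below also cover genes outside that filter. Of 32 partners of regulators other than a GH3 gene (Sevir.9G364900), SvVt2 and SvDfl1 that carry no name of their own, 1 was also a partner of those 3 genes and 3 belonged to described transcription factor (TF) families, and these 4 were left out. SvBif2 was the listed regulator of 19 members and SvPla1 of 15, followed by SvOcl2 with 4, SvLg1 and SvWus with 3 each, and a C2H2 zinc finger gene (Sevir.9G170700) and a Myb gene (Sevir.6G166200, itself a member) with 1 each. There were 17 members under 1 regulator, 7 under 2, 3 under 3, and 1, the ubiquitin gene Sevir.2G191000, under 6. The members were thus chosen by their levels over these same libraries, so all stage patterns below describe the choice and do not test it.

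In grass inflorescences, branches and spikelets form from axillary meristems in the axils of suppressed leaves, and each new primordium is set off from the meristem by a boundary of slowly dividing cells. PLASTOCHRON1, named in rice, is a cytochrome P450 that acts outside the meristem on the pace of leaf initiation, and rice PLASTOCHRON2 encodes an RNA-binding protein of the terminal ear1 type. Maize Barren inflorescence2 is a protein kinase of the PINOID type that is needed for axillary meristem initiation and acts on auxin transport. LIGULELESS1 is an SBP-domain TF of leaf boundaries, WUSCHEL a homeodomain TF of stem cell maintenance, and OCL2 a homeodomain TF of the maize epidermis.

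All libraries came from the wild-type accession A10.1, with no treatment, at 6 stages counted in days after sowing (DAS). Every stage had 4 libraries (10, 14, 15, 16 and 18 DAS) apart from 12 DAS with 3, numbered 1, 2 and 4. By morphology, the inflorescence meristem (IM) was in place at 10 DAS, branch meristems (BMs) formed at 12 and 14 DAS, spikelet meristems (SMs) appeared at 15 DAS, spikelets and bristles separated at 16 DAS and floral organs formed at 18 DAS. Each library was a pool of hand-dissected primordia, so the spread between replicates is a spread between pools. In bulk tissue, fewer cells of a type and less RNA per cell cannot be told apart.

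Levels are given as CPM, which are counts scaled to an equal library total with the TMM method of edgeR. This unit takes no account of transcript length, and the levels of different genes are therefore not compared. A gene was called at a step between stages when edgeR's quasi-likelihood test gave an adjusted p under 0.05 over the 21180 genes tested, and all 28 members passed the filter for testing. Libraries held 7630744 to 24467495 counts, so that 1 CPM rested on few reads in the shallowest. Replicates 1 and 2 of 15 DAS, with 8964218 and 7630744 counts, stood apart from the rest of their stage. Their best correlations over all genes were with a 16 DAS library (0.988 and 0.987) and not with their own stage (0.987 and 0.985). For pairs of stages that involve 15 DAS, counts of calls are therefore also given without them, with values for single genes whose call was lost. The share of all genes called is not given for that fit, and neither are the tests over several stages. Sequencing was paired-end up to 14 DAS and single-end from 15 DAS on, so run and stage cannot be told apart between 14 and 15 DAS. The meristem genes SvKn1 and SvRs1 were present at every stage, with a summed level of 198 to 346 CPM at 10 DAS and 602 to 797 CPM at 14 DAS. This sum was 580 to 834 CPM at 15 DAS, and neither gene was called from 14 to 15 DAS. At 16 DAS the sum was 664 to 887 CPM, and at 18 DAS 517 to 644 CPM. Of 10 photosynthesis genes that mark leaf tissue, the libraries of 10 DAS had a summed level of 115 to 154 CPM, those of 14 DAS 71.3 to 76.3 CPM and those of 15 DAS 97.3 to 154 CPM, so it moved against the members between these stages. Its part in the results was not tested.

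The members shared a peak while BMs were forming. The mean was highest at 14 DAS in 26 of 28 members and at 12 DAS in the other 2 (Sevir.1G086000 and Sevir.5G244600), whereas 11.8% of all genes tested had their highest mean at 14 DAS and 8.99% at 12 DAS (20.8% at either). From 10 to 12 DAS all 28 members were called higher, beside 6.61% of all genes tested (14.4% in either direction), with a median log2 fold change of 1.92 (0.68 to 3.84) against 0 for all genes. From 12 to 14 DAS only Sevir.6G166200 was called, higher, beside 2.31% of all genes (5.27% in either direction), and the median was 0.27 (-0.05 to 1.12). This count was 3 in a fit of only the stages compared, 2 with DESeq2 and 2 without replicate 3 of 10 DAS, replicate 1 of 12 DAS or replicate 4 of 15 DAS. On the log2 scale, a median of 86.1% of the rise from 10 to 14 DAS was reached by 12 DAS, and the lowest share was the 60% of Sevir.6G166200. From 10 to 14 DAS all 28 were called higher, beside 20.7% of all genes (42.1% in either direction), with a median of 2.25 (0.95 to 4.46). In every member each library of 12 and 14 DAS lay above each library of 10 DAS, as in 9.48% of all genes tested. In 16 members each library of 12 and 14 DAS lay above each library of the 3 later stages (9.58% of all genes), and in 7 the libraries of 14 DAS lay above all others (0.642% of all genes). The test over the 3 early stages called all 28 members, beside 35.7% of all genes, and that over the 3 late stages called 12, beside 57.7%. Over all 6 stages all 28 were called, beside 88.3%.

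From 14 to 15 DAS all 28 members were called lower, beside 27% of all genes tested (56.4% in either direction), with a median log2 fold change of -1.45 (-2.46 to -0.61) against 0.03 for all genes. The mean at 15 DAS was a median of 0.375 times that at 14 DAS, from 0.2 in Sevir.3G115400 to 0.658 in Sevir.9G571100. Without both shallow libraries of 15 DAS, 27 members were called lower, the median was -1.65 (-3.09 to -0.69), and the lost member was the LOG gene Sevir.3G125300 (-0.76 ± 0.34, SE). In 13 members both shallow libraries lay above both other libraries of 15 DAS, and in 1 below them. The share of all genes with these patterns was not counted, so these counts are not read as a trait of the members. The change of sequencing run falls on this step, and its part in the drop cannot be told apart from that of the stage.

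After 15 DAS the median changes of the members were smaller, and single members changed in both directions. The median log2 fold change was 0.22 (-0.46 to 0.75) from 15 to 16 DAS, against -0.03 for all genes. From 16 to 18 DAS it was -0.35 (-1.99 to 0.4), against 0 for all genes. From 15 to 16 DAS 3 members were called, all higher (Sevir.1G084200, Sevir.5G220100 and Sevir.7G109900), beside 13.8% of all genes tested (28.6% in either direction). This count was 0 without replicate 3 of 15 DAS (with 5 members at an unadjusted p under 0.05, and 4 called with DESeq2 on all libraries), 1 without replicate 1 of 16 DAS, and 6 without both shallow libraries of 15 DAS, where Sevir.1G328800, Sevir.3G038200 and Sevir.5G244600 were added. From 16 to 18 DAS 10 members were called, all lower, beside 16.3% of all genes (36.5% in either direction). This count was 5 without replicate 1 of 18 DAS. Between 15 and 18 DAS 6 were called lower and 2 higher, beside 20.6% and 22.1% of all genes (42.7% in either direction). Without both shallow libraries this became 3 lower and 3 higher, and in a fit of only the stages compared, in which 24 members could be tested, 3 lower and 1 higher. The mean at 18 DAS remained above that at 10 DAS in 24 of 28 members, with a median ratio of 1.36, from 0.636 in Sevir.3G038200 to 5.72 in Sevir.8G023000, but 10 and 18 DAS come from different runs.

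**Figure D1:**
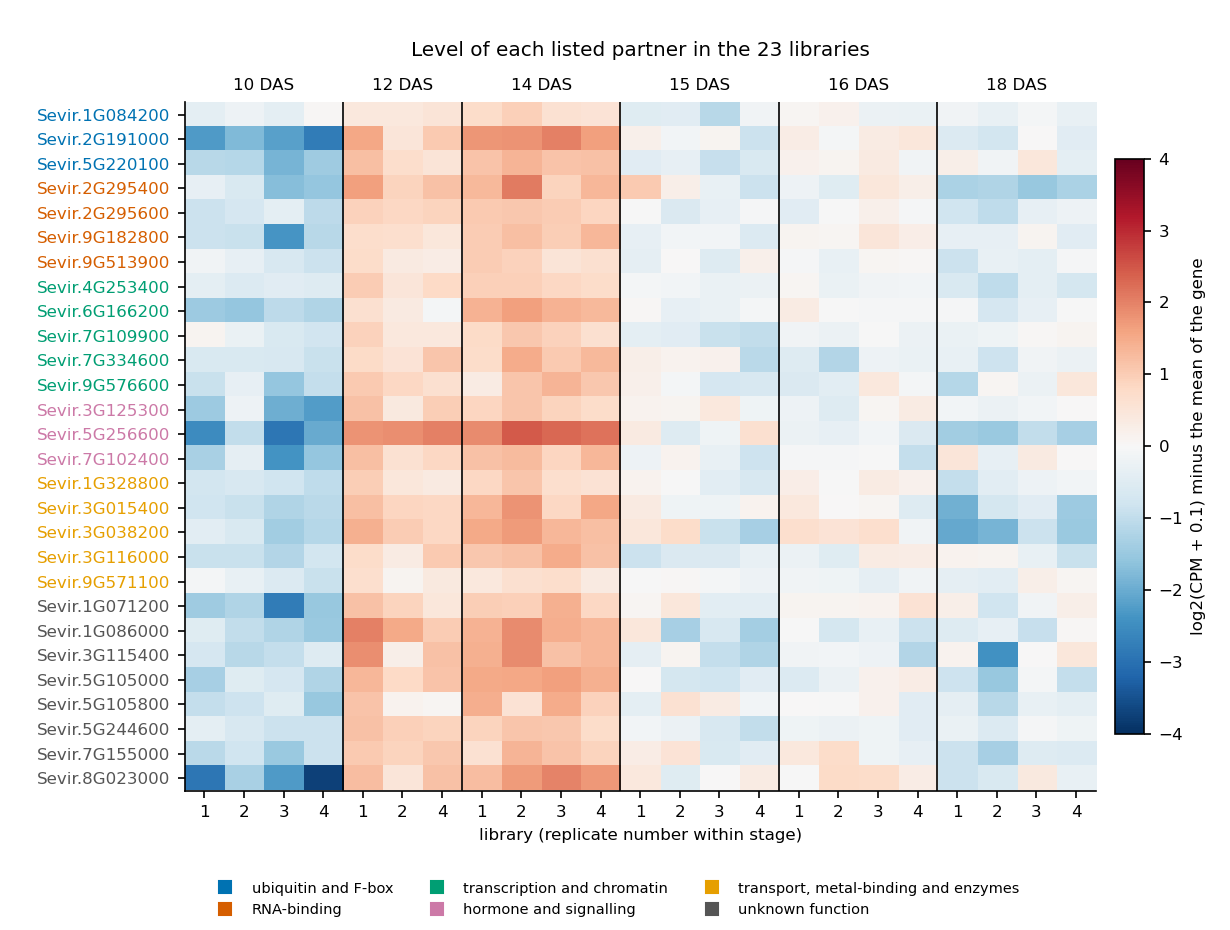
Level of each of the 28 listed partners (lines, ordered and coloured by annotated role) in each of the 23 libraries (columns, by stage and replicate number), as log2(CPM + 0.1) minus the mean of the gene, with red above and blue below that mean. All genes are above their mean in the libraries of 12 and 14 DAS but for Sevir.6G166200 in replicate 4 of 12 DAS, and the deepest blue lies at 10 DAS, in Sevir.8G023000, Sevir.5G256600 and Sevir.2G191000.

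The ubiquitin and F-box group held 3 members. Ubiquitin is attached to proteins to mark them for degradation or to change their function, and F-box proteins choose the targets of SCF-type ubiquitin ligases. All 3 rose from 10 to 12 DAS (log2 fold changes of 0.68 to 3.38) and fell from 14 to 15 DAS (-1.95 to -1.23). Sevir.2G191000 encodes a ubiquitin fused to the ribosomal protein L40, from which free ubiquitin and the ribosomal protein are released. The replicates were at 1.08, 1.56, 1.15 and 0.709 CPM at 10 DAS, 16.5, 7.77 and 11.5 at 12 DAS and 19.1, 19.6, 22.6 and 17.6 at 14 DAS. Later replicates were at 6.36, 5.13, 6.03 and 3.02 CPM at 15 DAS, 6.85, 5.26, 7.04 and 7.6 at 16 DAS and 3.79, 3.25, 5.58 and 3.97 at 18 DAS. Each library of 14 DAS lay above all libraries of the other stages, and the stages 10 and 12 DAS did not overlap. Its log2 fold change was 4.1 ± 0.26 (SE) from 10 to 14 DAS, -1.95 ± 0.23 from 14 to 15 DAS and -0.7 ± 0.24 from 16 to 18 DAS, the last of which was lost when any 1 of 5 libraries of these stages was left out. The polyubiquitin gene Sevir.1G084200, with Arabidopsis UBQ10 as its best match, was the member with the smallest rise, from 20.6 ± 3.11 CPM (SD, n = 4) at 10 DAS to 39.8 ± 5.14 (n = 4) at 14 DAS, and its 15 DAS mean of 17 ± 4.52 CPM was below that of 10 DAS. Ubiquitin genes have near-identical repeats and copies among which Salmon divides reads, so the levels of both ubiquitin genes are uncertain. The F-box gene Sevir.5G220100, which also has an FBD domain, was at 1.26 ± 0.304 CPM at 10 DAS, 7.85 ± 0.581 at 14 DAS and 2.26 ± 0.406 at 15 DAS. Unlike most members, it was called higher again at 16 DAS (3.73 ± 0.553 CPM) and remained at 3.58 ± 0.947 CPM at 18 DAS. The 16 DAS call was lost when replicate 3 of 15 DAS was left out.

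The RNA-binding group held 4 members, of which a pair encodes proteins of the terminal ear1 type. In maize, terminal ear1 restricts the initiation of leaves and its mutants carry altered inflorescences. The pair was annotated with the RNA recognition motif of Mei2-like proteins and had Arabidopsis TEL1 as its best match. Sevir.2G295600 was the more abundantly counted gene of the pair. In the early libraries it was at 2.16, 2.51, 3.03 and 1.91 CPM at 10 DAS, at 7.76, 7.23 and 7.57 at 12 DAS and at 8.52, 8.61, 8.32 and 7.43 at 14 DAS. In the late libraries it was at 4.03, 2.69, 3.22 and 3.92 CPM at 15 DAS, at 2.91, 3.96, 4.62 and 3.91 at 16 DAS and at 2.29, 1.93, 3.17 and 3.48 at 18 DAS. Replicates were tight at 12 and 14 DAS, where the stages overlapped, and all libraries of both lay above those of 10 DAS and of the late stages. Its log2 fold change was 1.64 ± 0.19 (SE) from 10 to 12 DAS, 0.13 ± 0.18 from 12 to 14 DAS and -1.24 ± 0.18 from 14 to 15 DAS. The decrease from 16 to 18 DAS (-0.51 ± 0.19) was called, but not with only the stages compared, with all genes of at least 1 count kept, or when any 1 of 5 libraries of these stages was left out.

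The other member of the pair, Sevir.2G295400, rested on 3 to 71 counts per library. Its libraries held 0.639, 0.502, 0.182 and 0.213 CPM at 10 DAS, 2.76, 1.63 and 1.96 at 12 DAS and 2.17, 3.8, 1.61 and 2.21 at 14 DAS. Those of the late stages held 1.8, 0.976, 0.657 and 0.412 CPM at 15 DAS, 0.711, 0.566, 1.17 and 0.994 at 16 DAS and 0.286, 0.301, 0.226 and 0.284 at 18 DAS. At 15 DAS the 4 libraries ranged from the level of 10 DAS to that of 14 DAS, with replicate 1 the highest, whereas at 18 DAS all 4 lay close together and below every library of 12 to 16 DAS. It rose by 2.56 ± 0.38 (SE) on the log2 scale from 10 to 14 DAS, and changed by -1.62 ± 0.49 from 16 to 18 DAS and by -1.68 ± 0.5 from 15 to 18 DAS. The last was not called without replicate 1 of 15 DAS (-1.21) or without both shallow libraries (-0.95). Reads shared by the 2 genes may be divided between them, so the level of each is uncertain.

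Pumilio proteins bind messenger RNAs and repress their translation or stability. The pumilio gene Sevir.9G513900 (best match Arabidopsis PUM7) had one of the smaller changes. At 10 DAS the level was 2.96, 2.61, 2.06 and 1.77 CPM, followed by 5.57, 4.28 and 4.08 at 12 DAS and 6.74, 6.31, 4.72 and 5.22 at 14 DAS. At 15 DAS it was 2.54, 3.3, 2.27 and 3.85 CPM, then 3.17, 2.67, 3.45 and 3.41 at 16 DAS and 1.79, 2.65, 2.49 and 3.19 at 18 DAS. The libraries of 10 and 12 DAS did not overlap, those of 14 and 15 DAS did not overlap, and the levels of 10 and 18 DAS were intermixed. The log2 fold change was 0.96 ± 0.21 (SE) from 10 to 12 DAS and -0.95 ± 0.2 from 14 to 15 DAS. Sevir.9G182800, a CCCH zinc finger gene with the Arabidopsis flowering gene FES1 as its best match, held 5.99 ± 2.32 CPM at 10 DAS (SD, n = 4), 30.6 ± 3.33 at 14 DAS and 11.5 ± 1.6 at 15 DAS. Its annotation did not name RNA binding, and its place in this group is uncertain.

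**Figure D2:**
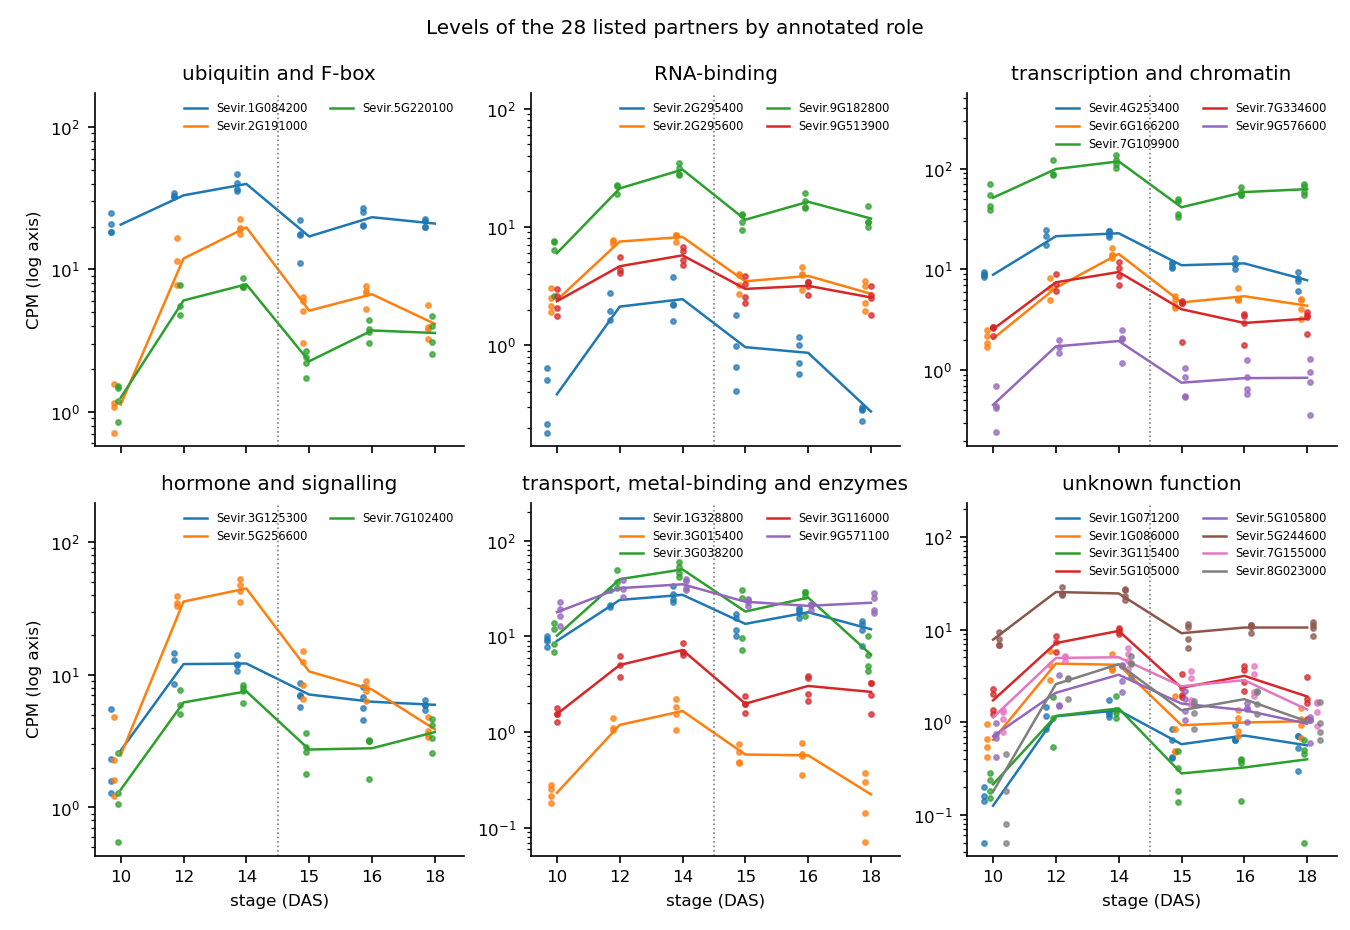
CPM (log axis) of the 28 listed partners by stage, in a panel for each annotated role, with points for libraries (those at 0 drawn at 0.05 CPM), lines through the stage means and a dotted line at the change of sequencing run. All lines go up from 10 to 12 DAS and down from 14 to 15 DAS, whereas from 16 to 18 DAS 10 lines belong to members called lower, with the steepest drops in Sevir.3G038200 (-1.99 on the log2 scale), Sevir.2G295400 (-1.62), Sevir.3G015400 (-1.33), Sevir.7G155000 (-1.06) and Sevir.5G256600 (-1).

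The transcription and chromatin group held 5 members. Sevir.6G166200 is a Myb gene whose best match, Arabidopsis MYB94, activates the synthesis of cuticular wax. The replicates were at 1.84, 1.71, 2.48 and 2.2 CPM at 10 DAS, 8.16, 6.61 and 4.93 at 12 DAS and 13.9, 16.2, 13.9 and 13 at 14 DAS. Later replicates were at 5.41, 4.15, 4.3 and 4.95 CPM at 15 DAS, 6.53, 5.1, 5.06 and 4.97 at 16 DAS and 5.01, 3.25, 4.07 and 5.11 at 18 DAS. With all libraries in the fit, it was the only member called between 12 and 14 DAS (1.12 ± 0.17, SE), where the highest library of 12 DAS lay far below the lowest of 14 DAS. Each library of 14 DAS was above all others of the series, and the 3 late stages overlapped, with replicate 1 of 16 DAS above the other libraries of its stage. The log2 fold change was 1.68 ± 0.19 from 10 to 12 DAS and -1.6 ± 0.17 from 14 to 15 DAS.

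Zinc finger homeodomain (ZF-HD) proteins are TFs of plants that act as dimers. The ZF-HD gene Sevir.7G109900, with Arabidopsis HB22 as its best match, rose by less than most members. In the early libraries it was at 70.2, 54.2, 43.1 and 38.6 CPM at 10 DAS, at 123, 87 and 88 at 12 DAS and at 111, 137, 123 and 102 at 14 DAS. In the late libraries it was at 49.5, 48, 35.2 and 32.9 CPM at 15 DAS, at 58.7, 55.1, 65.2 and 55.4 at 16 DAS and at 54.8, 58.2, 67.2 and 70.5 at 18 DAS. Its lowest stage was 15 DAS and not 10 DAS, and the libraries of 18 DAS lay above those of 15 DAS. The log2 fold change was -1.52 ± 0.17 (SE) from 14 to 15 DAS, and it was called higher both from 15 to 16 DAS (0.51 ± 0.17) and from 15 to 18 DAS (0.61 ± 0.17). The 16 DAS call was lost when any 1 of 4 libraries was left out, and without both shallow libraries the 18 DAS difference was 0.88 ± 0.19.

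Little zipper proteins of Arabidopsis bind HD-ZIP III TFs, which pattern the shoot and its lateral organs, and keep them from binding DNA. Sevir.7G334600 had the little zipper gene ZPR3 as its best match. Its libraries held 2.68, 2.71, 2.61 and 2.2 CPM at 10 DAS, 7.2, 6.14 and 9 at 12 DAS and 6.96, 11.8, 8.63 and 10.3 at 14 DAS. Those of the late stages held 4.88, 4.64, 4.66 and 1.92 CPM at 15 DAS, 2.91, 1.78, 3.59 and 3.48 at 16 DAS and 3.36, 2.29, 3.77 and 3.55 at 18 DAS. Its late libraries were all below those of 12 and 14 DAS, and within 15 DAS replicate 4 stood below the other 3. The log2 fold change was 1.54 ± 0.26 (SE) from 10 to 12 DAS and -1.25 ± 0.24 from 14 to 15 DAS.

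Sevir.4G253400 encodes a protein with a methyl-CpG-binding domain and a CW-type zinc finger, both of which are found in proteins that read chromatin marks. At 10 DAS the level was 9.35, 8.39, 8.97 and 8.72 CPM, followed by 24.9, 17.5 and 21.7 at 12 DAS and 24.3, 24.2, 22.1 and 20.8 at 14 DAS. At 15 DAS it was 11.7, 11.5, 10.3 and 10.5 CPM, then 13.1, 10.2, 11.2 and 11.4 at 16 DAS and 8.16, 6.14, 9.35 and 7.59 at 18 DAS. The spread was small at 10 DAS (8.85 ± 0.406 CPM, SD, n = 4) and at 15 DAS (11 ± 0.67, n = 4), all libraries of 12 and 14 DAS lay above those of the late stages, and 18 DAS was the lowest stage. It rose by 1.27 ± 0.13 (SE) on the log2 scale from 10 to 12 DAS, and the log2 fold change was -1.06 ± 0.12 from 14 to 15 DAS, -0.56 ± 0.13 from 16 to 18 DAS and -0.49 ± 0.13 from 15 to 18 DAS, the last also called without both shallow libraries (-0.42 ± 0.16).

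The annotation of Sevir.9G576600 was ambiguous. Its best Arabidopsis matches were the floral co-repressor LEUNIG and its homolog, whereas its best rice match was a thionin, a small secreted defence protein. The replicates were at 0.439, 0.703, 0.242 and 0.425 CPM at 10 DAS, 1.97, 1.71 and 1.48 at 12 DAS and 1.17, 2.09, 2.48 and 2.04 at 14 DAS. Later replicates were at 1.06, 0.854, 0.537 and 0.55 CPM at 15 DAS, 0.582, 0.647, 1.25 and 0.852 at 16 DAS and 0.358, 0.964, 0.754 and 1.28 at 18 DAS. It rested on 4 to 40 counts per library, the libraries of 12 and 14 DAS lay above those of 10 DAS, and only replicate 1 of 14 DAS fell within the range of the late libraries. The log2 fold change was 1.88 ± 0.37 (SE) from 10 to 12 DAS and -1.43 ± 0.35 from 14 to 15 DAS.

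The hormone and signalling group held 3 members. LOG enzymes release active cytokinin from its nucleotide precursor in the last step of synthesis, and the rice gene LOG is needed to maintain the shoot meristem. The LOG gene here is Sevir.3G125300. In the early libraries it was at 2.32, 5.57, 1.58 and 1.28 CPM at 10 DAS, at 14.7, 8.55 and 12.9 at 12 DAS and at 11.9, 14.1, 12 and 10.7 at 14 DAS. In the late libraries it was at 7.1, 6.96, 8.66 and 5.7 CPM at 15 DAS, at 5.62, 4.53, 6.82 and 8.1 at 16 DAS and at 5.94, 5.42, 5.96 and 6.46 at 18 DAS. Replicate 2 of 10 DAS was the highest of its stage, and the levels of 12 and 14 DAS overlapped (0.01 ± 0.28 on the log2 scale, SE). It rose by 2.13 ± 0.3 from 10 to 12 DAS. Its decrease from 14 to 15 DAS (-0.77 ± 0.27) was the second smallest of the members and was not called without replicate 2 of 14 DAS (-0.69), replicate 4 of 15 DAS (-0.67) or both shallow libraries (-0.76). At 18 DAS its mean was 2.21 times that of 10 DAS.

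Protein phosphatases of type 2C (PP2C) of one clade hold the abscisic acid pathway inactive until the hormone is bound by its receptors. Sevir.5G256600, with the Arabidopsis abscisic acid-induced PP2C gene HAI3 as its best match, was listed only under SvOcl2 and had the largest rise from 10 to 12 DAS of the members (3.84 ± 0.29, SE). Its libraries held 1.6, 4.82, 1.21 and 2.27 CPM at 10 DAS, 33.3, 34.8 and 39 at 12 DAS and 35.7, 52.8, 47.4 and 43.2 at 14 DAS. Those of the late stages held 12.4, 6.59, 8.42 and 15 CPM at 15 DAS, 8.14, 7.52, 8.94 and 6.39 at 16 DAS and 3.58, 3.37, 4.83 and 3.76 at 18 DAS. No library outside 12 and 14 DAS reached the lowest of those stages. It continued downward after 15 DAS, with log2 fold changes of -2.07 ± 0.25 from 14 to 15 DAS, -1 ± 0.29 from 16 to 18 DAS and -1.46 ± 0.28 from 15 to 18 DAS (-1.59 ± 0.3 without both shallow libraries). The WD40 repeat gene Sevir.7G102400 is of unknown role, and its place in this group is uncertain. Its stage means were 1.36 ± 0.857 CPM at 10 DAS (SD, n = 4), 7.51 ± 1.02 at 14 DAS and 2.73 ± 0.772 at 15 DAS.

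**Figure D3:**
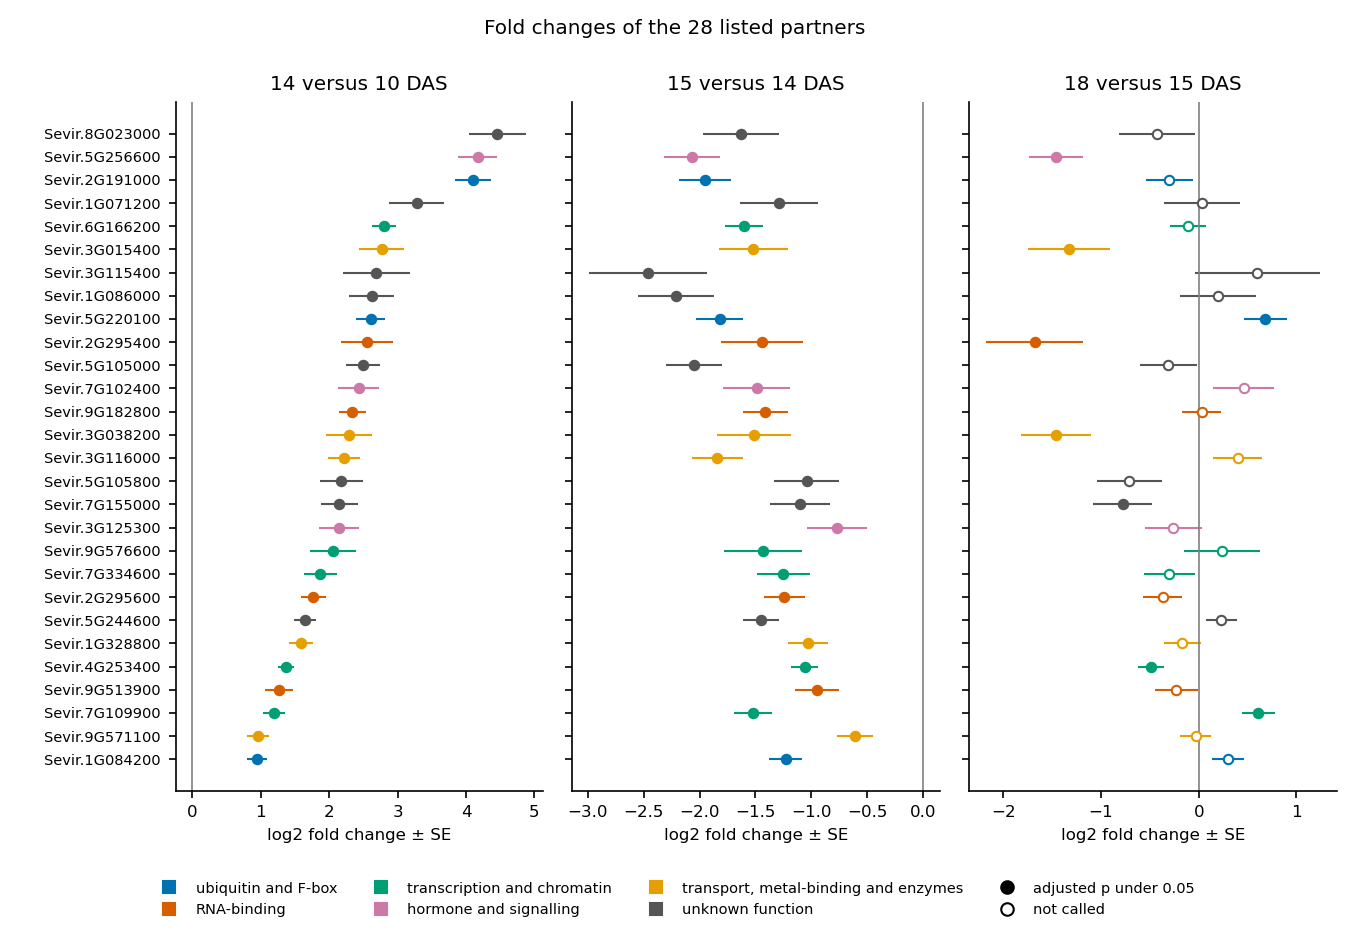
Log2 fold change (points) with its standard error (bars) of each of the 28 listed partners for 14 against 10 DAS, 15 against 14 DAS and 18 against 15 DAS, ordered by the first, coloured by role and filled where called at an adjusted p under 0.05. All values are above 0 on the left (0.95 to 4.46) and below 0 in the middle (-2.46 to -0.61), and on the right 6 filled points lie below 0 and 2 above. The middle panel spans the change of sequencing run.

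The group of transporters, metal-binding proteins and enzymes held 5 members. Sevir.3G015400 was annotated as a polyol transporter of the major facilitator superfamily, whose proteins carry sugars and sugar alcohols across membranes. At 10 DAS the level was 0.28, 0.251, 0.182 and 0.213 CPM, followed by 1.41, 1.09 and 1.06 at 12 DAS and 1.56, 2.19, 1.06 and 1.82 at 14 DAS. At 15 DAS it was 0.742, 0.488, 0.478 and 0.618 CPM, then 0.775, 0.566, 0.586 and 0.355 at 16 DAS and 0.0715, 0.301, 0.377 and 0.142 at 18 DAS. Counts were low, with 1 to 9 per library at 10, 15 and 18 DAS, and 18 DAS returned to the level of 10 DAS (ratio of the means 0.964). Its log2 fold change was 2.77 ± 0.33 (SE) from 10 to 14 DAS, -1.52 ± 0.31 from 14 to 15 DAS and -1.33 ± 0.42 from 15 to 18 DAS. The last was not called without replicate 1 of 18 DAS, which held 1 count. The called decrease from 16 to 18 DAS was also lost without that library (-1.05), or without replicate 1 of 16 DAS (-1.14).

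Proteins with a heavy metal-associated (HMA) domain bind copper and other metal ions. Sevir.3G038200 has this domain in a glycine-rich sequence that was also matched to cell wall proteins. The replicates were at 13.7, 11.8, 6.91 and 8.22 CPM at 10 DAS, 49.3, 37.2 and 32.2 at 12 DAS and 52.6, 59.6, 46 and 42.1 at 14 DAS. Later replicates were at 25.2, 30.6, 9.67 and 7.21 CPM at 15 DAS, 29.2, 26.6, 29.3 and 16.5 at 16 DAS and 4.36, 4.94, 10.1 and 6.39 at 18 DAS. At 15 DAS the shallow replicates 1 and 2 lay far above replicates 3 and 4, with a stage mean of 18.2 ± 11.5 CPM (SD, n = 4). At 18 DAS all libraries were below those of 16 DAS (-1.99 ± 0.35 on the log2 scale, SE), and 18 DAS was the lowest stage. The difference between 15 and 18 DAS (-1.46 ± 0.36) was called with all libraries and not without both shallow ones (-0.41 ± 0.31), whereas the difference between 14 and 15 DAS grew from -1.51 ± 0.33 to -2.56 ± 0.31.

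The other 3 members of this group differed in how far they moved. Sevir.1G328800, a gene for a small isoprenylated HMA protein, held 8.96 ± 0.989 CPM at 10 DAS (SD, n = 4), 27.2 ± 4.5 at 14 DAS and 11.9 ± 2.86 at 18 DAS, with a called decrease from 16 to 18 DAS (-0.59 ± 0.18, SE) that was lost without replicate 1 of 18 DAS. The papain-type protease gene Sevir.3G116000, whose best match is the Arabidopsis xylem protease XCP1, held 1.54 ± 0.205 CPM at 10 DAS, 7.2 ± 0.942 at 14 DAS and 1.98 ± 0.333 at 15 DAS. Sevir.9G571100, a short-chain dehydrogenase gene similar to a chloroplast import component, had the smallest drop after 14 DAS, from 35 ± 4.21 CPM to 23 ± 1.79 at 15 DAS (-0.61 ± 0.16 on the log2 scale).

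For 8 members no function was given in the annotation. They rose by 1.55 to 3.76 from 10 to 12 DAS on the log2 scale and changed by -2.46 to -1.04 from 14 to 15 DAS, with all 8 called at both steps. Sevir.8G023000 had the largest rise of all members from 10 to 14 DAS, 4.46 ± 0.42 (SE). In the early libraries it was at 0.0799, 0.452, 0.182 and 0 CPM at 10 DAS, at 3.04, 1.79 and 2.91 at 12 DAS and at 3.06, 4.28, 5.21 and 4.37 at 14 DAS. In the late libraries it was at 1.7, 0.854, 1.25 and 1.58 CPM at 15 DAS, at 1.23, 2.18, 2.13 and 1.56 at 16 DAS and at 0.644, 0.783, 1.66 and 0.993 at 18 DAS. At 10 DAS the 4 libraries held only 0 to 9 counts, against 55 to 84 at 14 DAS, so the size of the rise is imprecise and its direction was the same for each pair of libraries. Sevir.1G071200 was of similar depth, with 0 to 4 counts at 10 DAS. Its libraries held 0.16, 0.201, 0 and 0.142 CPM at 10 DAS, 1.46, 1.17 and 0.847 at 12 DAS and 1.28, 1.23, 1.74 and 1.13 at 14 DAS. Those of the late stages held 0.636, 0.854, 0.418 and 0.412 CPM at 15 DAS, 0.646, 0.647, 0.66 and 0.923 at 16 DAS and 0.715, 0.301, 0.528 and 0.71 at 18 DAS. Replicate 3 of 10 DAS had no count, all libraries of 12 and 14 DAS exceeded those of 10 DAS, and replicate 4 of 16 DAS lay above the rest of its stage. It rose by 3.28 ± 0.4 from 10 to 14 DAS and changed by -1.29 ± 0.35 from 14 to 15 DAS.

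Sevir.7G155000 was among the members that were called lower from 15 to 18 DAS (-0.78 ± 0.3, SE). At 10 DAS the level was 1.08, 1.36, 0.788 and 1.28 CPM, followed by 5.06, 4.59 and 5.19 at 12 DAS and 3.73, 6.31, 5.46 and 4.6 at 14 DAS. At 15 DAS it was 2.97, 3.54, 1.55 and 1.72 CPM, then 3.3, 4.04, 2.13 and 1.92 at 16 DAS and 1.29, 0.904, 1.66 and 1.63 at 18 DAS. Within 15 and 16 DAS replicates 1 and 2 were above replicates 3 and 4, and at 18 DAS the level overlapped that of 10 DAS. The call was lost when any 1 of 4 libraries of these stages was left out. It was also lost in a fit of only the stages compared (-0.82), and without both shallow libraries the difference was -0.27 ± 0.33. Of the remaining unknown genes, Sevir.1G086000 (4.3 ± 1.53 CPM at 12 DAS, SD, n = 3, and 4.17 ± 0.83 at 14 DAS, n = 4) and Sevir.5G244600 (25.4 ± 2.7 and 24.5 ± 2.89 CPM) had their highest mean at 12 DAS, by a margin within their spread. Sevir.3G115400 had the largest drop of the members from 14 to 15 DAS (-2.46 ± 0.53), to 2 to 4 counts per library. Sevir.5G105000, which carries the unknown domain DUF674, peaked at 9.68 ± 0.654 CPM and Sevir.5G105800 at 3.26 ± 0.957 CPM, both at 14 DAS. The rise of Sevir.5G105800 from 10 to 12 DAS (1.55 ± 0.34) was the only one not called when replicate 1 of 12 DAS was left out.

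Members were also grouped by the regulators they were listed under, and differences between these groups were not tested. From 10 to 14 DAS the median log2 fold change was 2.22 for the 11 members under SvBif2 without SvPla1, 2.15 for the 7 under SvPla1 without SvBif2, 2.13 for the 8 under both and 3.39 for the 2 under SvOcl2 alone (Sevir.1G086000 and Sevir.5G256600). From 14 to 15 DAS the medians were -1.41, -1.45, -1.38 and -2.14 in this order, and from 16 to 18 DAS -0.2, -0.15, -0.58 and -0.48. SvPla1 and SvBif2 themselves were called higher from 10 to 12 DAS and lower from 14 to 15 DAS, as the choice of the members implies. SvPla1 (Sevir.9G259300) was at 88.2 to 188 CPM in the libraries of 10 DAS, 355 to 465 at 12 DAS, 375 to 568 at 14 DAS and 109 to 193 at 15 DAS, and rose from 15 to 16 DAS (0.68 ± 0.22, SE, and 1.08 ± 0.26 without both shallow libraries) before a decrease to 18 DAS (-0.99 ± 0.23). SvBif2 (Sevir.3G410700) was at 2.98 to 6.53 CPM at 10 DAS, 12.8 to 22 at 12 DAS, 20.4 to 25.3 at 14 DAS and 7.01 to 11.8 at 15 DAS. Over the 23 libraries, Pearson's r of the members' CPM was 0.75 to 0.97 with SvPla1 and 0.82 to 0.98 with SvBif2, and these values describe the choice, with libraries that share stages.

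The pathway list of 12 boundary and axillary meristem genes holds 5 of the regulators under which members were listed. From 10 to 12 DAS all 12 were called higher, beside 6.61% of all genes tested, with a median log2 fold change of 1.63. From 14 to 15 DAS all 12 were called lower, beside 27%, with a median of -1.36 (-1.62 without both shallow libraries, with all 12 called). The study placed most of these genes in clusters that tended to be highest at 12 and 14 DAS in these same libraries. Their calls therefore describe that grouping and do not test it. SvTsh4 (Sevir.2G265300), an SBP-domain TF that represses bracts in maize, was the only gene of the list called lower between 12 and 14 DAS, where it fell by 1.21 on the log2 scale from 152 ± 13.1 CPM (SD, n = 3) to 65.8 ± 7.88 (n = 4), a step at which no member was called lower. The libraries of SvUb3 (Sevir.6G212600), another SBP-domain TF, were also all lower at 14 DAS (-0.41 ± 0.16, SE), which was not called. SvBaf1 (Sevir.4G025200), an AT-hook protein of maize axillary meristem initiation, was called higher again from 15 to 16 DAS (1.3 ± 0.3, SE), and SvLg1 (Sevir.3G023500) too (1.06 ± 0.17). Both were also called without both shallow libraries (1.77 ± 0.36 and 1.21 ± 0.21).

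The 33 listed partners of the GH3 gene, SvVt2 and SvDfl1 had another early course. Their median log2 fold change was 0.16 (-0.06 to 0.5) from 10 to 12 DAS and 0.08 (-0.14 to 0.45) from 10 to 14 DAS, where the 28 members had 1.92 and 2.25. From 10 to 12 DAS 1 of the 33 was called higher, and all 28 members, beside 6.61% of all genes tested. From 14 to 15 DAS both lists were lower, with medians of -1.24 (33 of 33 called) and -1.45 (28 of 28), beside 27% of all genes called lower. Without both shallow libraries these medians were -1.46 (33 called) and -1.65 (27 called). From 15 to 16 DAS 22 of the 33 were called higher, and 3 of the 28, beside 13.8% of all genes (28.6% in either direction). Without both shallow libraries 29 and 6 were called higher, and the share of all genes is not given for that fit. Both lists were drawn from the same network, which sorts genes by these courses, so the difference between them is part of how they were chosen.

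**Figure D4:**
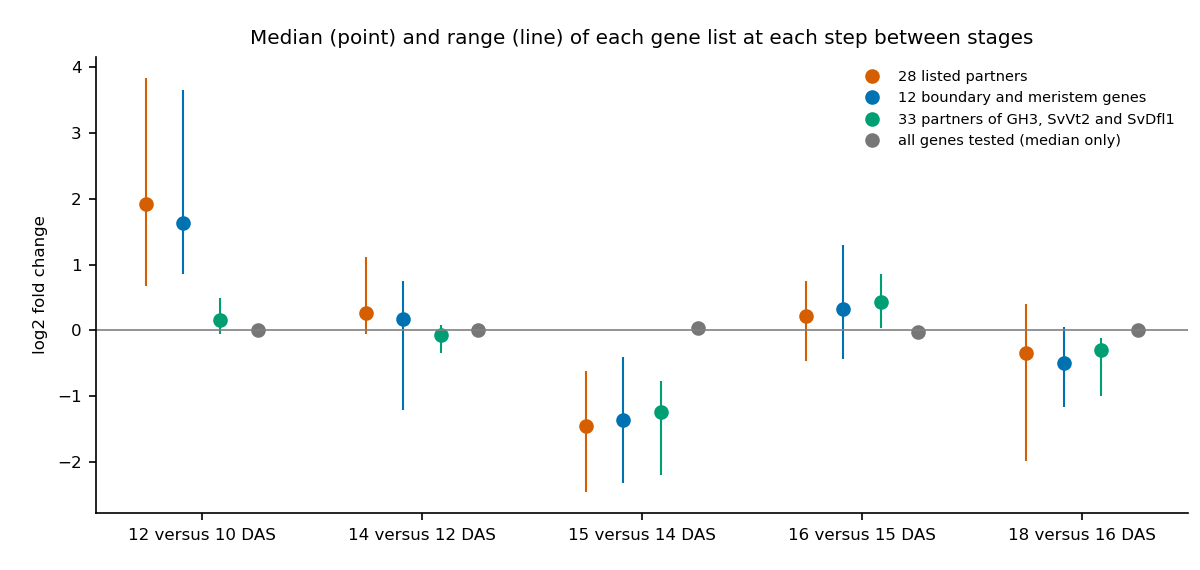
Median (point) and range (line) of the log2 fold change at each step between neighbouring stages for the 28 listed partners, the 12 boundary and axillary meristem genes, the 33 partners of the GH3 gene, SvVt2 and SvDfl1, and all 21180 genes tested (median only). The first 2 lists have medians of 1.92 and 1.63 from 10 to 12 DAS where the third has 0.16, and all 3 have medians of -1.45 to -1.24 from 14 to 15 DAS.

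Position in the genome was not used by the rule. By the chromosome and order in their identifiers, members were on all 9 chromosomes, with 1 to 5 on each, and 3 pairs lay close together. Sevir.2G295400 and Sevir.2G295600, the terminal ear1-type pair, have 1 gene between them. Sevir.3G115400 and Sevir.3G116000 have 5, and Sevir.5G105000 and Sevir.5G105800 have 7. Of these 13 genes in between, 6 had enough counts to be tested. From 10 to 14 DAS their median log2 fold change was -0.29 (-0.98 to 0.81). Of these 6 genes 3 were called lower and 1, Sevir.5G105300, higher, beside 42.1% of all genes in either direction (20.7% higher). Sevir.2G295500 was at 16.8 to 23.5 CPM at 10 DAS and 12.8 to 17.4 CPM at 14 DAS, so it moved down while the genes on either side rose. Sevir.5G105700 was at 34.6 ± 5.92 CPM at 10 DAS (SD, n = 4) and 43 ± 8.09 at 12 DAS (n = 3), and was called lower at both 14 DAS (17.5 ± 4.05) and 15 DAS (6.6 ± 1.02).

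**Figure D5:**
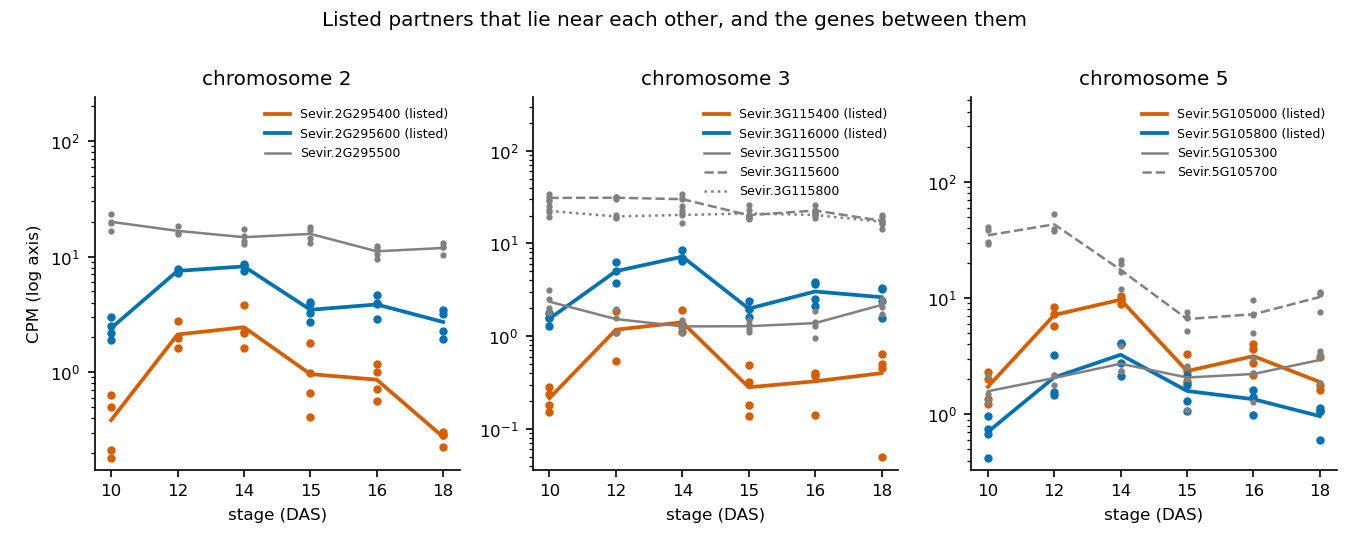
CPM (log axis) by stage for the 3 pairs of listed partners that lie near each other (orange and blue) and the 6 tested genes between them (grey), with points for libraries (those at 0 drawn at 0.05 CPM) and lines through the stage means. The orange and blue lines rise from 10 to 14 DAS in each panel, and of the grey lines only that of Sevir.5G105300 does (0.81 on the log2 scale).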

How the data were processed

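RNA-seq was analysed for 23 libraries of inflorescence primordia of the A10.1 accession, grouped into 6 stages by their labels. The deposited values are expected counts for 35214 genes, which the authors estimated with Salmon 0.8.1 on primary transcripts and imported with tximport, without normalization and from read 1 only of the paired-end libraries. The authors' estimates divide a read between transcripts that it matches equally, and 8.77% of the values had a fraction, so the counts were rounded to whole numbers here. Reads were not mapped again.

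Stages were compared with the quasi-likelihood F-test of edgeR 4.0.16 (R 4.3.3), two-sided, in 1 fit of all 23 libraries with TMM scaling and a coefficient per stage. The filterByExpr function left 21180 genes to test of 30004 with a count, and Benjamini-Hochberg adjustment was over these. Standard errors are |log2 fold change| / √F. Other settings tried were DESeq2 1.42.0, library sizes in place of TMM, a filter of at least 1 count in total or of 10 in each library, the replicate number as a block, separate fits of the stages in a comparison, and omission of each library in turn. Omission of both shallow libraries of 15 DAS was added after the data were seen. The code was tested on simulated data.

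Libraries held 7630744 to 24467495 counts. Precision covers counting error and the spread between pools of primordia. Replicates of a stage were checked for repeated libraries, and all 33 pairs differed by more than sampling noise (chi-square per degree of freedom of 3.68 to 44.97).

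Members and gene lists were chosen with earlier results of these data known, and the members by a network made from the same libraries. All members could be named, in role groups set by their annotation. Values of each library are given for 10 members with an annotated regulatory role, and for the 4 others with the largest change from 10 to 14 DAS and the 4 others with the largest from 15 to 18 DAS, of which 2 were in both sets. Best matches and domains are those of the study's annotation. Edge weights were not analysed here.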

Additional observations from a re-analysis of the deposited data

Results flagged for a closer look

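In 9 of the 140 groups of 4 libraries (28 members at 5 stages) 1 library stood apart, with a gap to its nearest neighbour that took more of the range than Dixon's critical value allows, which is 6.43% of the groups where chance gives about 1 in 20. At 14 DAS replicate 2 was the highest for Sevir.1G086000 (5.4 CPM, others 3.63 to 3.91) and for the F-box gene Sevir.5G220100 (8.72 CPM, others 7.51 to 7.66). At 15 DAS replicate 4 was the lowest for the little zipper-type gene Sevir.7G334600 (1.92 CPM, others 4.64 to 4.88). At 16 DAS replicate 1 was the highest for the Myb gene Sevir.6G166200 (6.53 CPM, others 4.97 to 5.1), and replicate 3 the lowest for the dehydrogenase gene Sevir.9G571100 (18.7 CPM, others 21.4 to 21.7). Also at 16 DAS, replicate 4 was the highest for Sevir.1G071200 (0.923 CPM, others 0.646 to 0.66) and the lowest for Sevir.3G115400 (0.142 CPM, others 0.367 to 0.404) and for the WD40 gene Sevir.7G102400 (1.63 CPM, others 3.15 to 3.23). At 18 DAS replicate 2 was the lowest for Sevir.5G105800 (0.602 CPM, others 1.06 to 1.13). Some of these gaps rest on few reads, as in Sevir.1G071200 (13 counts, others 8 to 10), Sevir.3G115400 (2, others 5 to 6) and Sevir.5G105800 (10, others 15). These libraries were kept in all fits, and their part in the results was tested only by leaving each out.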

How the results depend on the processing

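The count of called members moved by over 1.5 times in a fit of only the stages compared, with DESeq2, without both shallow libraries of 15 DAS and when some single libraries were left out. From 12 to 14 DAS it was 3 with only the stages compared and 2 with DESeq2, in place of 1. From 15 to 16 DAS it was 6 without both shallow libraries of 15 DAS, in place of 3. From 15 to 18 DAS it was 4 with only the stages compared, in place of 8. When each library was left out in turn, the count was 27 to 28 from 10 to 12 DAS, 1 to 2 from 12 to 14 DAS, 27 to 28 from 14 to 15 DAS, 0 to 4 from 15 to 16 DAS (in place of 3), 5 to 12 from 16 to 18 DAS (in place of 10), 28 from 10 to 14 DAS and 6 to 9 from 15 to 18 DAS. In the F-tests it was 28 over the early stages, 8 to 13 over the late stages, with 8 when replicate 1 of 18 DAS was left out, and 28 over all 6. With all libraries these tests called 28, 12 and 28 members, beside 35.7%, 57.7% and 88.3% of all genes. With the 10-count filter 19 members could be tested. Of 2369 alternative values of 80 named log2 fold changes, 2341 kept their side of the threshold, 27 lost a call, 1 gained one and 0 of the 63 called changed sign. Scaling by library size alone moved the median of all genes by at most 0.1 on the log2 scale (14 to 15 DAS). The replicate numbers did not pair the libraries in general, and a pairing between some stages was not tested. Over 55 same-number pairs the correlation of deviations from the stage means was -0.42 to 0.65 (median 0.03, and 0.02 between other numbers). Of these pairs 14 had a correlation over 0.1, and 10 of 23 libraries correlated best with their own number. With the replicate block the count was 28, 1, 28, 3 and 10 at the 5 steps in order, and 28 from 10 to 14 DAS, 8 from 15 to 18 DAS and 28, 11 and 28 in the F-tests. Members under 1 CPM rest on few reads, and the size of their changes is imprecise.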
